A study of Mus musculus with 6 samples.

Results

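The cytotoxic granule and effector cytokine genes are 31 genes whose products natural killer (NK) cells use to kill target cells and to signal to other cells. They were followed through Ikaros chromatin immunoprecipitation with sequencing (ChIP-seq), which maps where a protein sits on the genome. A peak was counted for a gene when the authors' gene column named that gene. By this rule 15 peaks belonged to 9 of the 31 genes and formed 9 regions, of 2526 regions in all. The peaks came from 3 wild-type (WT) libraries of NK cells from mouse spleen, expanded in culture with IL-15 at 50 ng/ml and precipitated with an antibody to IKZF1. The series also lists 3 libraries of Ikzf1 KO cells, in which deletion is driven by NKp46, a receptor of NK cells and related innate lymphocytes. The KO libraries were not analysed here. The labels give no age, strain or sex, and nothing says that the WT replicates came from separate animals.

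Ikaros, the product of Ikzf1, is a zinc finger transcription factor of lymphocytes that binds DNA with a GGGAA core and recruits chromatin remodelling complexes. NK cells store granzymes, which are serine proteases, with perforin in secretory lysosomes bound to the proteoglycan serglycin. On contact with a target the granules fuse with the cell membrane, perforin opens the way for granzymes, and serpins in the NK cell protect it from its own proteases. Death ligands of the TNF family, interferon-gamma and chemokines make up the rest of the response.

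Most member peaks lay at gene starts, so the 250 bases before the gene start are shown for 6 genes, 5′ to 3′ on the gene's own strand. The printed bases are not the peaks themselves. In replicates 2 and 3 the Fasl peaks reach 23 and 2 bases into them, and the Nkg7 peaks cover 55 and 64. Sequences and starts are from RefSeq, build GRCm38.p6. For Gzmc and Serpinb9 the RefSeq gene span begins farther upstream than the start used. Gzmc, Nkg7 and Fasl were overlapped by peaks of 2 or more libraries. Gzma and Gzmb are shown for comparison with Gzmc, and Serpinb9 because its peak covered a GGGAA core. Capitals mark GGGAA or its complement TTCCC, and TGTGGT or its complement ACCACA, the core letters recognised by RUNX factors.
The windows lie at chr14:56234658-56234907 for Gzmc, chr13:113100982-113101231 for Gzma, chr14:56262335-56262584 for Gzmb and chr1:161788496-161788745 for Fasl, all on the minus strand. Those of Nkg7, chr7:43436888-43437137, and Serpinb9, chr13:33004291-33004540, are on the plus strand.
Gzmc: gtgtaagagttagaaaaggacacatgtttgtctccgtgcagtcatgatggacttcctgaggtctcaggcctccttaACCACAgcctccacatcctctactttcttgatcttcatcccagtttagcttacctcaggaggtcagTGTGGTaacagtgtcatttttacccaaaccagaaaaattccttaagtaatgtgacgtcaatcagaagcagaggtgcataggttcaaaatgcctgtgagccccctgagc
Gzma: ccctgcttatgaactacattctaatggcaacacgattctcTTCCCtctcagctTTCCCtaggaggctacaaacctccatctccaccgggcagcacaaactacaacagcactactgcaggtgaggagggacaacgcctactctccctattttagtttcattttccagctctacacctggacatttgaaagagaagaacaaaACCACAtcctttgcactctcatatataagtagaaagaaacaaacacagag
Gzmb: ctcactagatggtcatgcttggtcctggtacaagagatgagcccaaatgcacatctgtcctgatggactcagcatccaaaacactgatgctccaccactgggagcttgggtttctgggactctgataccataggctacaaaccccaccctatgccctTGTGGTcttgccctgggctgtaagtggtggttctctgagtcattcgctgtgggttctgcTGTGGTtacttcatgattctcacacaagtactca
Nkg7: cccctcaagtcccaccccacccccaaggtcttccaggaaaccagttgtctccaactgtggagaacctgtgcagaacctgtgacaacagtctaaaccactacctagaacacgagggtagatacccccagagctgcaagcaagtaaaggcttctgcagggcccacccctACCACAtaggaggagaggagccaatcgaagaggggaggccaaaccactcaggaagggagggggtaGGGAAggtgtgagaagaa
Fasl: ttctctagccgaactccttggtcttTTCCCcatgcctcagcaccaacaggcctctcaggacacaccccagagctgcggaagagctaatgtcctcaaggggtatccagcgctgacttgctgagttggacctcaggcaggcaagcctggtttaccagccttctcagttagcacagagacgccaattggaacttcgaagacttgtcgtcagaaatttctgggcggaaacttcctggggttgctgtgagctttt
Serpinb9: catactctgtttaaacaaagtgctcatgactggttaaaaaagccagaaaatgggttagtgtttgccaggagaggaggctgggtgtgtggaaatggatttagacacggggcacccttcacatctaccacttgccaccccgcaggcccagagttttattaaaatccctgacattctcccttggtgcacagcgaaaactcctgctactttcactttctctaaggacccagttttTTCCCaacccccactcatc

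The lists held 685, 2084 and 1342 peaks in WT replicates 1, 2 and 3, and the list of replicate 2 was the longest. Median fold enrichments over all peaks were 5.10, 4.73 and 4.99, and the number of reads behind each list is unknown. The main counts are given with and without replicate 2.

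Ikaros peaks were listed at granzyme genes, both serpin genes, Nkg7, Fasl, Ifng and Ccl3. Each of these genes had its peak in replicate 2. Of 31 genes, 9 had a peak in at least 1 list (29.0%, 95% Clopper-Pearson interval 14.2 to 48.0), beside 9.39% of 21900 protein-coding genes. Gzmc, Nkg7, Fasl and Ifng, 4 of 31, had a peak in at least 2 lists (12.9%, interval 3.63 to 29.8), beside 4.41% of protein-coding genes. Gzmc and Ifng, 2 of 31, had one in all lists (6.45%, interval 0.791 to 21.4), beside 1.99%. By library, 2 members had a peak in replicate 1, beside 2.68% of protein-coding genes, 9 in replicate 2, beside 7.68%, and 4 in replicate 3, beside 5.44%. The genes are known for their activity in NK cells and were chosen with earlier results in view, so these shares are a description and were not tested. Gzma, Gzmb, Serpinb9, Serpinb6b and Ccl3 rest on replicate 2 alone: without that library, 4 of 31 genes had a peak in at least 1 list, beside 5.97% of protein-coding genes, and 2 in both remaining lists, beside 2.14%. Without replicate 3, 2 genes had a peak in both remaining lists, beside 2.29%.

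Peak strength is the fold enrichment that the authors' caller gave, and its percentile is its rank within 1 list, with 100 the strongest. The median member peak ranked above the middle of the list in replicates 1 and 3 and below it in replicate 2. Median percentiles were 80.7 for 2 peaks in replicate 1, 42.5 for 9 peaks in replicate 2 and 67.1 for 4 peaks in replicate 3. Ranked by −log10 p, the medians were 72.8, 29.6 and 54.7. Where −log10 q had to reach 5, and ranks were taken among the peaks kept, the median percentile was 51.8 in replicate 1 and 69.6 in replicate 2. Both member peaks of replicate 1 met that limit, so only the peaks they were ranked among changed. In replicate 2 that limit kept the peaks of Gzma, Gzmc and Ifng and removed the weaker member peaks. In the full list the kept peaks stood at percentiles of 80.4, 88.9 and 95.5. Of the 9 member peaks in replicate 2, 4 had a partner in another list (44.4%), beside 50.0% of all its 2084 peaks.

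**Figure D1:**
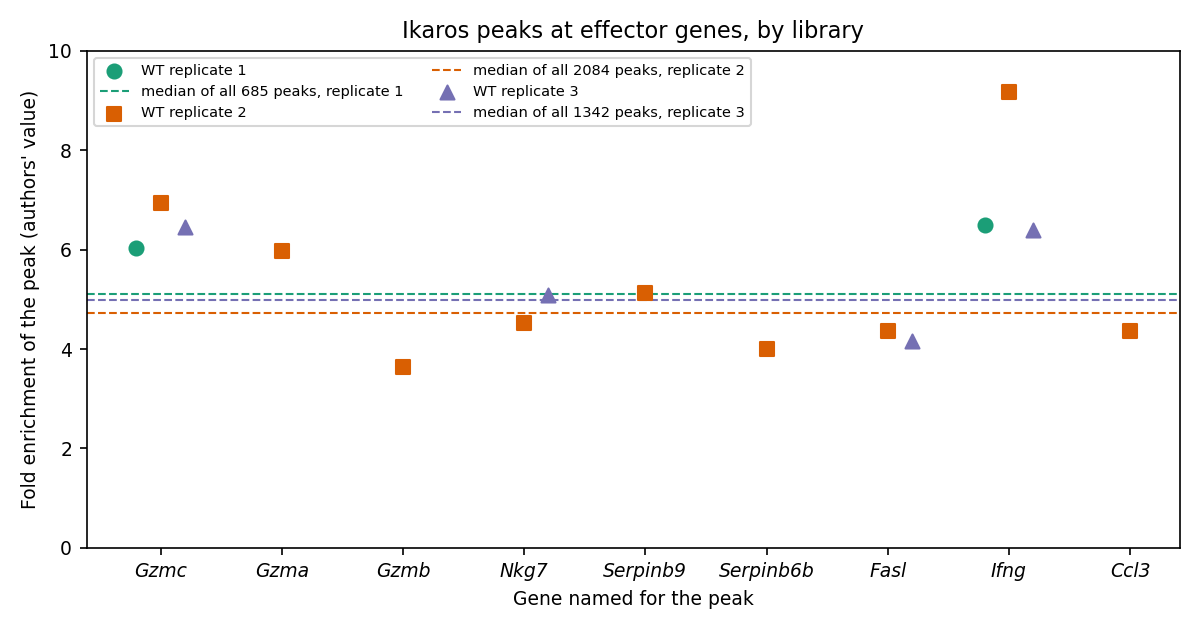
Fold enrichment, a linear ratio given by the authors, for each peak named for an effector gene; circles, squares and triangles are WT replicates 1, 2 and 3 and dashed lines the median of all peaks in each list. The Gzmc and Ifng peaks lie above the median of their own list in every library, and Gzmb, at 3.63, is the lowest point.

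Among the 8 granzyme genes, Gzmc had the peak that all libraries shared. Gzmc (ENSMUSG00000079186), which encodes one of the rodent granzymes of the chromosome 14 cluster, was enriched 6.02-fold in replicate 1, 6.95-fold in replicate 2 and 6.46-fold in replicate 3 (mean 6.48, SD 0.461, n = 3). All values were above the median of their list, at percentiles of 77.5, 88.9 and 81.8. The merged region ran from 56234387 to 56234955 on chromosome 14 (mm10), and 216 bp of it, from 56234700 to 56234915, were covered in each library. That shared part was the whole peak of replicate 1 and lay 43 to 258 bp upstream of the start. In replicates 2 and 3 the peak also crossed the start, reaching 270 and 102 bp into the gene. The RefSeq span of Gzmc continues upstream to 56241647, so the start used here is the one in the promoter table, 56234657.

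Gzma (ENSMUSG00000023132), a tryptase-like granzyme abundant in NK cells, had a peak in replicate 2 with a fold enrichment of 5.97 and a percentile of 80.4. It covered the start on chromosome 13, from 113100924 to 113101171. This was the third strongest member peak of that list, and it had no partner in the other libraries. Of the 521 peaks of replicate 2 with a fold enrichment of 5.64 or more, 21.7% had no partner.
Gzmb (ENSMUSG00000015437), whose product cleaves caspases and their substrates after aspartate, had a broad and weak peak in replicate 2. It was 1484 bp wide, from 56261420 to 56262903 on chromosome 14, at a width percentile of 99.0 and a fold percentile of 7.49. Its fold enrichment was 3.63 and its −log10 q 1.39. In replicates 1 and 3, the nearest peak to Gzmb was the one at Gzmc, 23.9 kb from the gene in each.

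Gzmd, Gzme, Gzmf, Gzmk and Gzmm had no peak under their own names. In the chromosome 14 cluster the Gzmc region was the nearest peak to Gzmf, Gzmd and Gzme, at 23.0, 101.8 and 113.8 kb in replicate 2. Cluster members are close copies: the Gzmc window was 81.8% identical to that of Gzme, 81.3% to Gzmd and 71.5% to Gzmf over the alignment. The longest identical runs were 39, 25 and 24 bases. Against Gzmb and Gzma, identities were 50.2% and 49.0%, with runs of at most 9 bases. How reads that match more than 1 copy were treated is not given in the sources used here, so a peak at 1 granzyme of the cluster carries that uncertainty. Gzmk, the neighbour of Gzma on chromosome 13, lay 70.5 kb from the Gzma peak. Prf1, which encodes perforin, had no peak, and the nearest, in Pald1, was 78.6 kb away in replicate 2 and 78.7 kb away in replicate 3.

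Of the 7 genes for the granule core, its membrane, its priming and granzyme maturation, Nkg7 was the 1 with a peak. Nkg7 (ENSMUSG00000004612), a granule membrane protein needed for efficient degranulation, had fold enrichments of 4.51 in replicate 2 and 5.09 in replicate 3. Percentiles were 42.5 and 53.2, near the middle of each list. Both peaks lay wholly upstream of the start, 196 to 536 bp in replicate 2 and 187 to 473 bp in replicate 3. The 278 bp they shared ran from 43436665 to 43436942 on chromosome 7. Srgn (serglycin), Lamp1 and Lamp2 (lysosomal membrane glycoproteins), Unc13d (granule priming), Ctsc (the protease that activates granzymes) and Ctsw (a cathepsin of killer cells) had none.

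Both serpin genes had a peak over the start given in the promoter table in replicate 2 and in no other list. Serpinb9 (ENSMUSG00000045827), whose product inhibits granzyme B, had a fold enrichment of 5.13 at a percentile of 62.5, from 54 bp upstream to 202 bp downstream of the start. Serpinb6b (ENSMUSG00000042842), an intracellular serpin of the same gene cluster, had 4.00 at a percentile of 21.6, from 169 bp upstream to 65 bp downstream. The starts used, 33004541 for Serpinb9 and 32965261 for Serpinb6b, lie inside the RefSeq gene spans. Those spans begin farther upstream on chromosome 13, at 32997061 and 32956811. The 250-base windows of these genes were 45.3% identical, with a longest identical run of 9 bases. The same cluster held a region shared by replicates 2 and 3 that the authors named for Serpinb9b, 6.38 kb from that gene in each list, with fold enrichments of 5.47 and 6.05. Serpinb9 lay 30.3 kb from it in both lists.

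Of the death ligands, Fasl had a peak in 2 libraries and Tnfsf10, which encodes TRAIL, had none. Fasl (ENSMUSG00000000817), the ligand of the death receptor Fas, was enriched 4.36-fold in replicate 2 and 4.16-fold in replicate 3, at percentiles of 36.4 and 21.2. These were below the middle of both lists. The peaks were wide, 654 and 681 bp, and lay downstream of the start rather than upstream. They began 23 and 2 bp before the start and ended 630 and 678 bp beyond it, inside the gene. The nearest peak to Tnfsf10 was 923.1 kb away.

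Ifng was the 1 cytokine gene of 7 with a peak, and the only member whose peak lay far from its start. Ifng (ENSMUSG00000055170), which encodes interferon-gamma, was enriched 6.49-fold in replicate 1, 9.18-fold in replicate 2 and 6.40-fold in replicate 3 (mean 7.35, SD 1.58, n = 3). Percentiles were 83.8, 95.5 and 81.0, the highest of any member in replicates 1 and 2 and below Gzmc, at 81.8, in replicate 3. Replicate 2 was the highest of the 3 libraries. The region ran from 118419071 to 118419430 on chromosome 10, with 205 bp common to each library, from 118419119 to 118419323. Nearer edges lay 21.7, 21.6 and 21.6 kb upstream of the start in replicates 1, 2 and 3, and no peak was listed nearer to the gene. The distal enhancers known upstream of mouse Ifng in NK and T cells were not mapped here.
Tnf, Lta and Ltb, neighbours on chromosome 17 that encode TNF and the lymphotoxins, had no peak within 100 kb. The nearest lay 304.5, 308.3 and 299.7 kb away. Csf1 and Il10, which encode a macrophage growth factor and an anti-inflammatory cytokine, had none within 100 kb either. Csf2, which encodes GM-CSF, had no peak named for it. A region 38.4 kb away, named for 4933405E24Rik, was enriched 5.94-fold in replicate 2 and 4.54-fold in replicate 3.

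Of the 4 chemokine genes, Ccl3 had a named peak, and Xcl1 had a peak at its promoter that was named for another gene. Ccl3 (ENSMUSG00000000982), which encodes an inflammatory chemokine, had a fold enrichment of 4.35 in replicate 2, at a percentile of 36.1. That peak, from 83649670 to 83649990 on chromosome 11, lay 292 to 612 bp upstream of the Ccl3 start and within the RefSeq span of Ccl4. Xcl1, which encodes lymphotactin, had a peak 60 to 406 bp upstream of its start in replicate 2, with a fold enrichment of 3.94 at a percentile of 19.3. The authors' column gives that peak to Gm20743, and it is not among the 15. Ccl5 had no peak, and the nearest was 98.2 kb away in replicate 2.

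**Figure D2:**
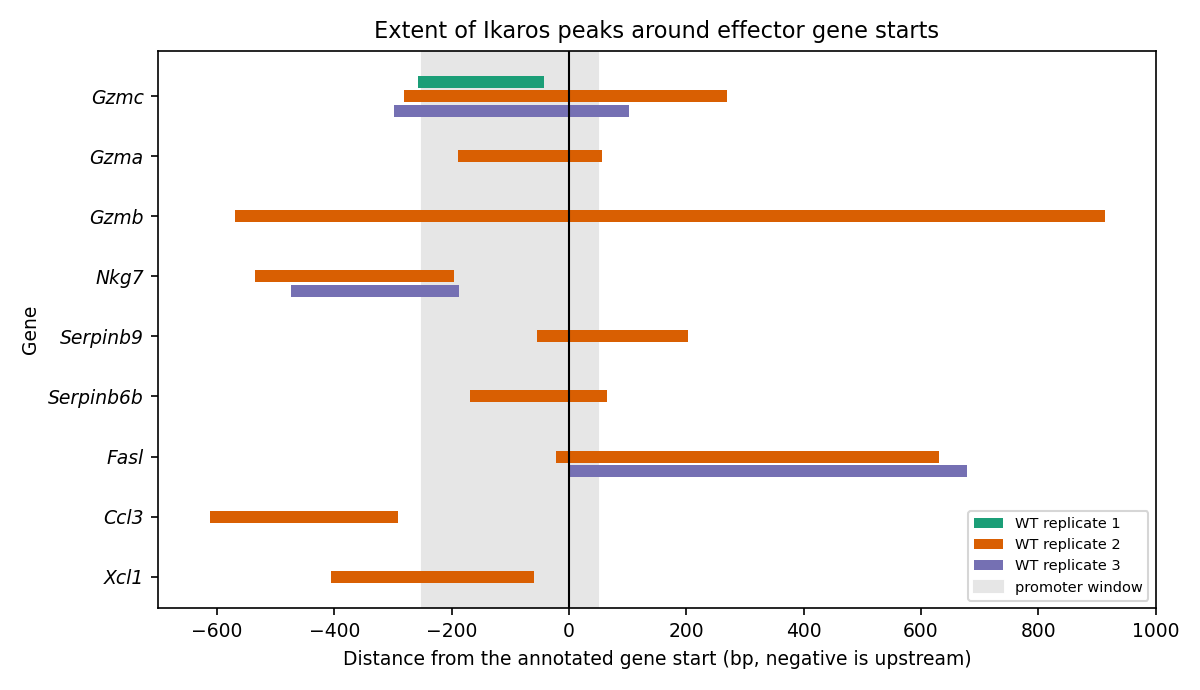
Extent of each peak in bp from the annotated gene start, negative upstream; bars are peaks of WT replicates 1, 2 and 3 and the grey band is the RefSeq promoter window, 250 bases before to 50 after the start. Bars at Gzmc, Gzma, Gzmb, Serpinb9, Serpinb6b and Fasl cross the start in replicate 2, and those at Nkg7, Ccl3 and Xcl1 end before it. Ifng is not drawn, as its peaks lie 21.6 kb or more upstream.

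Apart from Ifng, the peaks sat at gene starts. In replicate 2, 8 of 9 member peaks had a midpoint within 1 kb of an annotated start (88.9%), beside 44.3% of all peaks of that list. In replicate 3 the counts were 3 of 4 (75%) and 52.8%, and in replicate 1 they were 1 of 2 (50.0%) and 49.8%. Counted by promoter window, 8 of the 26 members in the promoter table were overlapped by a peak in at least 1 list (30.8%), beside 5.88% of 17492 protein-coding genes. These were Gzma, Gzmb, Gzmc, Nkg7, Fasl, Serpinb9, Serpinb6b and Xcl1. For at least 2 lists the counts were 3 of 26 (11.5%) and 2.73%, and for all lists 1 of 26 (3.85%) and 1.18%. Gzma, Gzmb, Serpinb9, Serpinb6b and Xcl1 were overlapped in replicate 2 alone. Without it, 3 of 26 members were overlapped in at least 1 list (11.5%), beside 3.84% of protein-coding genes, and Gzmc in both remaining lists, beside 1.31%. Without replicate 3, Gzmc was again the 1 member overlapped in both remaining lists, beside 1.35%.

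Member promoters with a peak were poor in CpG, unlike most promoters at which Ikaros peaks were listed. Vertebrate promoters divide into CpG-rich ones, common at housekeeping genes, and CpG-poor ones, common at tissue-restricted genes. The 8 member windows with a peak held 1 to 7 CpG sites in 250 bases. Their median ratio of observed to expected CpG was 0.212, and their median GC content was 48.6%. All 1151 coding windows with a peak had a median ratio of 0.839, a median of 21 CpG sites and a median GC content of 65.2%. Member windows without a peak had a median ratio of 0.305 over 20 windows, beside 0.530 for all 21263 coding windows.
At a ratio of 0.4 or less, a limit chosen after the values were seen, 8 of 20 member windows had a peak (40.0%, interval 19.1 to 63.9), and 5 of the 8 rest on replicate 2 alone. Without that library, 3 of 20 had one, beside 0.299% of coding windows. Among all coding windows of that kind 49 of 8689 had one, or 0.564%, so member windows made up 8 of the 49. Peaks of at least 2 lists overlapped 3 of 20 member windows (15.0%) and 0.242% of all, and peaks of every list overlapped 1 of 20 (5.00%) and 0.0921%. Above that ratio, 0 of 8 member windows had a peak (upper limit 36.9%), beside 8.76% of 12574 coding windows. The limit lies just above the highest member window with a peak, Fasl at 0.391, so this 0 follows from where it was set. With a limit of 0.3, 7 of 17 member windows at or below it had a peak, and the Fasl window fell above it. Whether the member promoters are open in NK cells, and how that bears on the difference from all coding windows, was not tested.

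**Figure D3:**
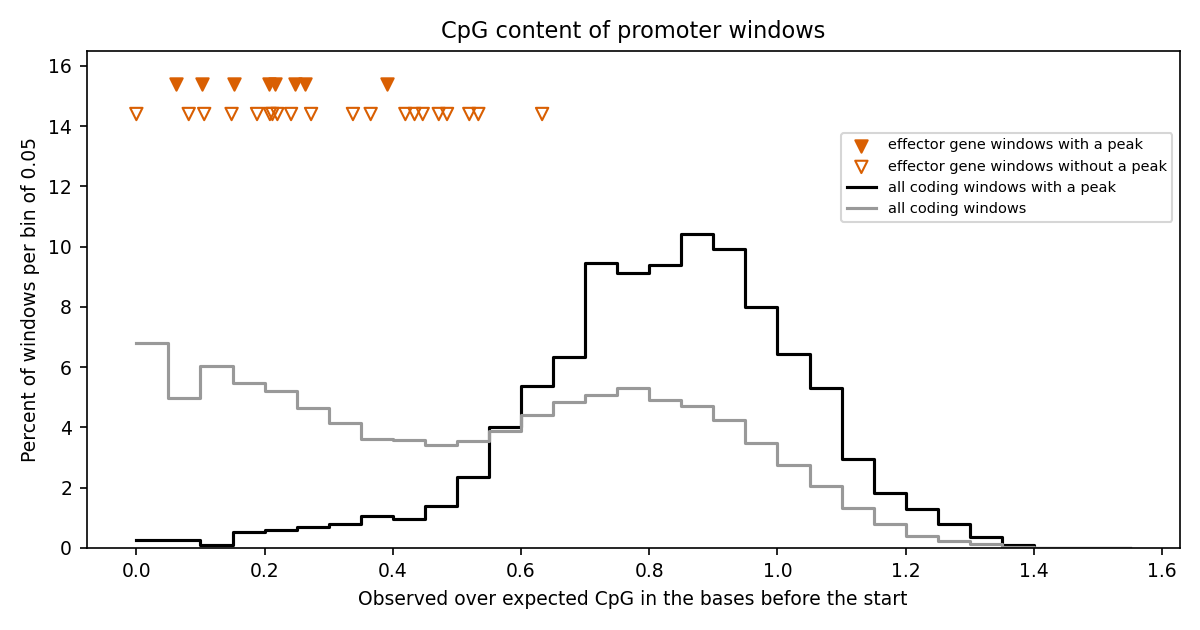
Ratio of observed to expected CpG in the 250 bases before the start; triangles are effector gene windows with a peak (filled) and without one (open), drawn at fixed heights that carry no value, and lines give the percent of coding windows per bin of 0.05, black for those with a peak and grey for all. Filled triangles lie at 0.391 or less, where few windows of the black line fall.

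The letters of these promoters were read for 4 motifs on both strands. GGGAA was present in 5 of 8 member windows with a peak (62.5%), in 8 of 20 without one (40.0%) and in 56.8% of all coding windows. Among coding windows with a peak, 63.4% held GGGAA, near the member share. TGGGAA, which contains GGGAA, was present in 2 of 8 member windows with a peak (25%) and in 20.9% of all coding windows. The peak itself covered a GGGAA in Serpinb9, 19 bases before the start, and in Serpinb6b, 120 bases before it. In Fasl, Gzma and Nkg7 the GGGAA matches of the window fell outside the peak, and Gzmc, Gzmb and Xcl1 had none in the window. The parts of peaks outside the windows, which include most of the Fasl peaks, were not searched. Whether those parts hold GGGAA is therefore unknown. TGTGGT was present in 5 of 8 member windows with a peak (62.5%), in 8 of 20 without one (40.0%) and in 12.4% of all coding windows. Among coding windows with a peak, 9.38% held TGTGGT. Gzmc held it 174 and 108 bases before the start, both inside the peak of each library. Gzmb held it at 93 and 34 bases and Gzma at 50 bases, inside their peaks. Without replicate 2, the windows with a peak were those of Gzmc, Nkg7 and Fasl, of which 2 held GGGAA and 2 held TGTGGT. Since the granzymes arose by duplication, their windows are not independent. TGANTCA, the AP-1 letters, was present in Gzmb alone (12.5%), beside 6.13% of coding windows. A match in these letters describes the sequence and is not a bound site.

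Of the 22 members with no named peak, Gzmf, Ccl4, Xcl1, Srgn, Lamp1 and Csf2 lay within 50 kb of a peak in replicate 2, and the other 16 did not. Within 50 kb of the gene span, whatever gene the peak was named for, replicate 2 had a peak at 15 of 31 members (48.4%), beside 20.3% of coding genes. Replicate 3 had 8 (25.8%) beside 15.0%, and replicate 1 had 4 (12.9%) beside 7.65%. The Gzmc peak is counted there for Gzmb, Gzmc and Gzmf in replicates 1 and 3, and for Gzmc and Gzmf in replicate 2. The Ccl3 peak of replicate 2 is counted for Ccl3 and Ccl4. Members that share a peak are not independent. Median distances to the nearest peak were 472.8, 70.5 and 299.7 kb for members in replicates 1, 2 and 3, and 857.5, 254.4 and 404.7 kb for coding genes. Srgn was 16.1 kb from a peak named for Kif1bp, and Lamp1 38.3 kb from one named for 2810030D12Rik, both in replicate 2. Taking the nearest peak over all lists, Unc13d was the farthest, at 1088.4 kb.

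**Figure D4:**
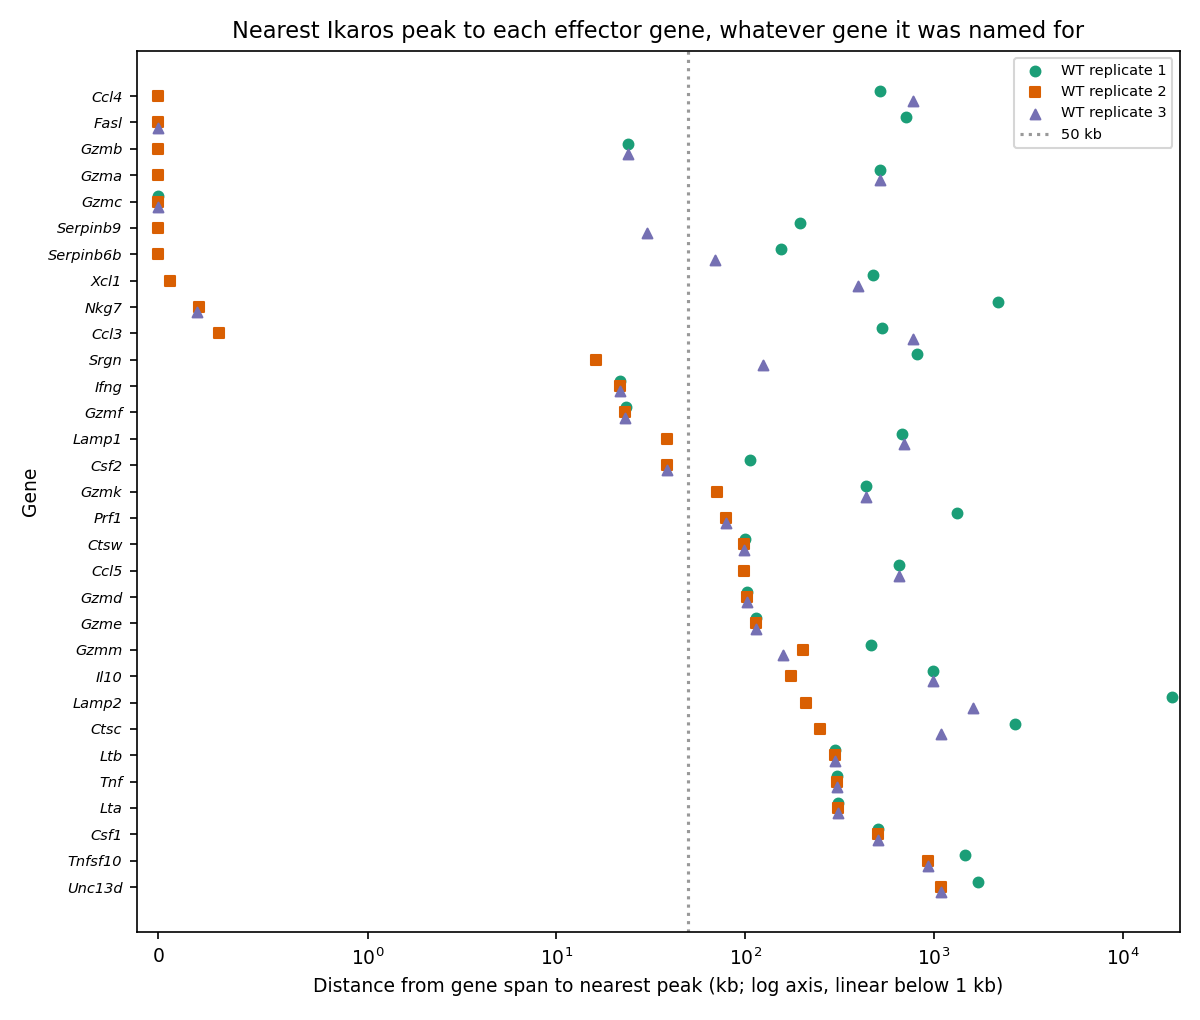
Distance in kb from each gene's RefSeq span to the nearest peak in WT replicates 1, 2 and 3, on a log axis that is linear below 1 kb; the dotted line marks 50 kb. Gzmb, Gzmc, Gzmf and Ifng lie left of that line in every library, and Unc13d and Tnfsf10 lie far right of it.

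Peaks were also named for genes that work with these effectors, taken from lists that hold no member. Of 21 further genes of granule exocytosis, 3 had a peak in at least 2 lists (14.3%) and 1 had a peak in 1 list. The shares of protein-coding genes, given above, are 4.41% for at least 2 lists and 9.39% for at least 1. Vamp4, a vesicle SNARE, was enriched 5.71-fold in replicate 1, 5.29-fold in replicate 2 and 6.08-fold in replicate 3. Arl8b, a GTPase that moves lysosomes, was enriched 5.07-fold and 6.98-fold in replicates 2 and 3, and Myo9b, an unconventional myosin, 4.34-fold and 3.97-fold. Of 18 further genes for proteases, inhibitors and maturation, Serpinb9b was the 1 with a peak, in 2 lists (5.56%). Shares of protein-coding genes were 9.39% for at least 1 list and 4.41% for at least 2. With 1 gene of 18, no difference is read from this.
Of 30 other cytokines and chemokines, Tgfb1 alone had peaks in at least 2 lists, at 2 sites, and 1 gene had a peak in 1 list. These shares, 3.33% in at least 2 lists and 6.67% in at least 1, stood beside 4.41% and 9.39% of protein-coding genes. With 1 and 2 genes of 30, they are near those shares and no difference is read from them. The stronger Tgfb1 site was enriched 7.55-fold and 5.99-fold in replicates 2 and 3. Of 24 regulators of effector genes, 2 had a peak in at least 2 lists (8.33%) and 2 in 1 list, and 1 of the 24, Zfp683, was not matched to the gene table. Irf2, an interferon regulatory factor, was enriched 4.86-fold, 7.30-fold and 5.32-fold in replicates 1, 2 and 3. Zfp36l2, which encodes an mRNA decay factor, was enriched 4.75-fold and 4.79-fold in replicates 1 and 2 at a site inside the gene.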

How the data were processed

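Ikaros ChIP-seq peak lists of 3 WT libraries were used. Build mm10 and the tools MACS2, Subread, SAMtools, Picard and edgeR 3.20.0 are named in the submitters' processing notes; their roles, the control library and the threshold are not given in the sources used here. The deposited columns, per the file headers, are fold enrichment (a linear ratio), −log10 p, −log10 q, a score, a gene and its distance. In every deposited peak the score was 10 times the −log10 q, rounded down. The list named R4 was taken as WT replicate 3, whose description carries that number. The lists held 685, 2084 and 1342 peaks, after rows repeated for several genes were joined; 41, 50 and 42 peak numbers were missing from them and those peaks were not analysed here. They hold no reads, so depth is unknown, and intervals cover counting error over genes or windows.

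Overlapping peaks, by 1 base or more, formed 1 region. Symbols of all 31 members matched the RefSeq gene table and 26 the promoter table (GRCm38.p6, the same build), which has strand. Of 2145 coding gene names in the lists, 2051 matched. Exons and introns were not assigned. Identities came from global alignments. The members and lists were chosen with earlier results of these data known. Members with a peak, and pathway genes with a peak in 2 or more lists, were named. One of the lists is not reported here. No test was made, since no comparison between groups was possible. Merging and gene assignment were tested on simulated data. Python 3.11.15, NumPy 2.4.6, pandas 2.3.3, SciPy 1.17.1, Biopython 1.88 and matplotlib 3.10.9 were used.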

Additional observations from a re-analysis of the deposited data

How the results depend on the processing

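No paired analysis was possible because lists of WT cells alone were used. Depth is unknown, so a member without a peak cannot be told from one with a weak peak. Causes of the changes were not tested, apart from fewer peaks by construction. Members with a peak in at least 1 list, 9 in all, were 3 where −log10 q had to reach 5 and 4 with equal list lengths. They were 12 with own assignment within 50 kb, and 4 to 9 without 1 replicate, beside 5.97% to 9.16% of protein-coding genes. Shares of protein-coding genes under the q limit, equal list lengths and own assignment are not given here. Counts under those settings therefore do not show whether members changed more than other genes. In at least 2 lists, 4 became 2 under that q limit and 2 with equal list lengths. Without 1 replicate the count was 2 to 4, beside 2.14% to 3.96% of protein-coding genes. In all lists, 2 became 1 both with own assignment within 10 kb and by promoter window, since the Ifng region is farther away. Without 1 replicate, all lists means the 2 that remain, a looser rule. Members and member regions in all lists were then 2 to 4, the same counts and shares as for at least 2 lists. Ranked among the peaks that met the q limit, the median percentile of member peaks was 51.8 in replicate 1 and 69.6 in replicate 2. Ranked in the full lists it was 80.7 and 42.5, so the values are not on 1 scale. In replicate 1 the limit kept both member peaks. In replicate 2 it kept the peaks of Gzma, Gzmc and Ifng and removed the weaker ones. When regions were ranked by −log10 p, the mean percentile of Nkg7 fell from 47.8 to 34.0, by more than its SD over libraries of 7.59. That of Ifng fell from 86.8 to 79.0, just beyond its SD of 7.71. Those of Gzmc and Fasl moved by less than their SD. Percentiles of Ccl3, Gzma, Gzmb, Serpinb6b and Serpinb9 also fell, but with 1 library each they have no spread to compare. With a CpG limit of 0.3 or 0.5, 41.2% or 32.0% of member windows at or below it had a peak, beside 0.398% or 0.747% of coding windows. The promoter window, its counts without 1 replicate and the CpG limits were chosen after seeing the data.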

Other observations

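Peak lists hold no expression, so the NK cell label could not be checked against marker levels. Of 5 NK cell markers, Klrb1c alone had a peak in at least 2 lists, and of 5 T cell markers, Trac alone did. Of 5 B cell and 5 myeloid markers, 0 had a peak in any list. Among protein-coding genes the shares were 4.41% for at least 2 lists and 9.39% for at least 1. With 5 markers for each cell type, these counts cannot separate the types.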
